A study of Mus musculus with 6 samples.

Results

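The 8 genes Dnmt1, Dnmt3a, Dnmt3b, Tet1, Tet2, Tet3, Idh1 and Idh2 encode the enzymes that write and remove DNA methylation and those that supply a cofactor for its removal. They were examined here through the open chromatin in and around them, in blood progenitor cells of mice with and without the histone demethylase UTX (gene symbol Kdm6a). Every ATAC-seq peak that lay inside one of these genes, or within 20 kb of its ends in the RefSeq annotation, was taken. Overlapping peaks, from any of the 6 samples, were then joined into 1 region, and the width of a region in a sample is the sum of the bases its peaks cover there. This gave 69 regions for the 8 genes, out of 75961 regions in all and 62098 near the 21887 protein-coding genes of the annotation. Of the 69 regions, 38 overlapped one of the 8 genes, 18 overlapped only a neighbouring gene and 13 lay between genes. The rule that picks the regions uses position only.

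ATAC-seq uses a transposase that inserts sequencing adapters into accessible DNA, so that a peak marks a stretch of open chromatin. There were 3 wild-type samples (genotype UTX_WT) and 3 Utx knockout samples (genotype UTX_KO), all of the C57BL/6 strain. The cells of both groups were bone marrow cells left after depletion of lineage-marked cells with a Miltenyi kit, a population enriched in haematopoietic stem and progenitor cells (HSPCs). The labels give neither age and sex, nor the Cre line or exons behind the knockout, nor whether the samples of a group came from separate animals, so the p-values below measure only the spread between these samples, which may be technical.

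DNA methylation in mammals is found mostly on the cytosine of CG dinucleotides. DNMT1 copies methylation to the new strand after replication, while DNMT3A and DNMT3B place it on unmethylated DNA. The TET enzymes oxidise methylated cytosine, a step towards its removal, and need 2-oxoglutarate, which IDH1 in the cytosol and IDH2 in mitochondria make from isocitrate. DNMT3A, TET2, IDH1 and IDH2 are recurrently mutated in human myeloid leukaemia, and mutant IDH enzymes make 2-hydroxyglutarate, an inhibitor of TET enzymes.

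The lists of the wild-type samples held 57405, 57917 and 57622 peaks and those of the knockout samples 45260, 50249 and 44576. They covered 32.6 to 33.8 Mb in wild type and 26.8 to 29.9 Mb in the knockout, with a median peak width of 403 to 411 bp and 427 to 441 bp. The lists carry no read counts, so the depth behind each peak is unknown. Kdm6a itself had 4, 5 and 5 peaks in wild type and 6, 6 and 5 in the knockout. Peaks at a gene do not show whether its exons were deleted, so they do not check the genotype labels. Peaks at marker genes of several blood lineages were counted as well. These counts are not corrected for the shorter lists of the knockout samples, so a lower count alone does not set a lineage apart. Peaks at 10 erythroid genes numbered 58 to 65 in wild type and 21 to 24 in the knockout. For 9 of these genes every knockout sample was below every wild-type sample, against 27.6% of all genes with a peak. At 6 megakaryocyte genes there were 32 to 35 against 17 to 20 peaks, and at 10 stem and progenitor genes 70 to 72 against 47 to 53. B lymphoid genes went the other way, with 44 to 52 peaks at 10 genes in wild type and 69 to 86 in the knockout. Peaks at 8 T and NK cell genes numbered 19 to 23 in wild type and 23 to 25 in the knockout, with none at Gzmb. At 10 granulocyte and monocyte genes there were 61 to 70 against 49 to 57, with none at Ly6g, and at 6 stromal and endothelial genes 18 to 22 against 13 to 16. All knockout samples were also lower for 4 megakaryocyte, 7 stem and progenitor, 4 granulocyte and monocyte and 2 stromal and endothelial genes. They were all higher for 5 B lymphoid genes, 1 T and NK gene and 1 granulocyte and monocyte gene, against 4.24% of all genes with a peak. In such mixed cells, fewer cells of a type and less open chromatin per cell cannot be told apart, and the part of these marker differences in the results below was not tested.

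The annotated starts of the 8 genes differ in their base composition and in whether a peak lay over them. The list of RefSeq starts used here (GRCm38.p6, the same assembly as mm10) holds 13 for the 8 genes, and these are the annotated starts meant below. The annotated spans of Tet3, Dnmt3a and Idh2 begin at -15.53, -5.421 and -3.258 kb from their first listed start (negative is upstream). Any start at those ends is not among the 13. Of the 250-base stretches just upstream of the listed starts, 7 are shown, for the starts on which the results turn. CG dinucleotides, the substrate of these enzymes, are in capitals. The pair from Dnmt1 contrasts an annotated start with no peak in any sample (chr9:20959889-20960138, minus strand) with one under a peak in all 6 (chr9:20952980-20953229, minus strand). The pair from Dnmt3a contrasts the first start (chr12:3806730-3806979, plus strand) with the internal start (chr12:3891494-3891743, plus strand). Tet2 (chr3:133544391-133544640, minus strand) has the most CG dinucleotides of the 13. The stretches of Tet3 (chr6:83441679-83441928, minus strand) and of the first start of Idh1 (chr1:65186480-65186729, minus strand) lie in regions whose peaks were narrower in the knockout.
Dnmt1, first start: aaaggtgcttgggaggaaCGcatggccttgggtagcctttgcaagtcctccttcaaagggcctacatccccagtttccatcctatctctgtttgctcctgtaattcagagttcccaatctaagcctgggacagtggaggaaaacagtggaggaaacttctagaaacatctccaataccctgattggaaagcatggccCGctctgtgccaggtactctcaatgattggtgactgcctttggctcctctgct
Dnmt1, second start: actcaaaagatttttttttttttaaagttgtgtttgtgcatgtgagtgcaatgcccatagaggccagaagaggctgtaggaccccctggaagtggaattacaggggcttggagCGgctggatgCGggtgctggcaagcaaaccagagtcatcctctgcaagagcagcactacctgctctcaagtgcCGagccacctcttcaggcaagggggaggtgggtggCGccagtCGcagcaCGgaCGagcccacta
Dnmt3a, first start: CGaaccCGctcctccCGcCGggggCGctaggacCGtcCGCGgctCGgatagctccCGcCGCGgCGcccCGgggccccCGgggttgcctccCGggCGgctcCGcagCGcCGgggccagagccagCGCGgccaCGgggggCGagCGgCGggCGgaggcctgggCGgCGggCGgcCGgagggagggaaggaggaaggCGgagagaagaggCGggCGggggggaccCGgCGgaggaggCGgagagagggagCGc
Dnmt3a, internal start: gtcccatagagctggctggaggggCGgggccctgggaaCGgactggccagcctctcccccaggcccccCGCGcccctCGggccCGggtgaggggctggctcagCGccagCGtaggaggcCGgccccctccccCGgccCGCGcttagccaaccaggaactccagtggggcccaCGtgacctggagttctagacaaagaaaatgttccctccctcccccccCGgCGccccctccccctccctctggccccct
Tet2 start: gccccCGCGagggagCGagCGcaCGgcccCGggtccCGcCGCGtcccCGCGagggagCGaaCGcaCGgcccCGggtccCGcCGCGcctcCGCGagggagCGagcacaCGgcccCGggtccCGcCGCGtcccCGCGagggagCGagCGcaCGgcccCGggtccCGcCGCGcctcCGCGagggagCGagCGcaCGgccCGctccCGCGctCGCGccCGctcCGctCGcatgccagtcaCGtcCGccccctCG
Tet3 start: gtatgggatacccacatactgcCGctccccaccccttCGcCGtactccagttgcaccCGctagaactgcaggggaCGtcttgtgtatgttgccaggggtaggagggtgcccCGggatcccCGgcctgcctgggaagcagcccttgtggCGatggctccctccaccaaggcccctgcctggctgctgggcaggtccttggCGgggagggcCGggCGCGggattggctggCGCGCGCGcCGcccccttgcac
Idh1, first start: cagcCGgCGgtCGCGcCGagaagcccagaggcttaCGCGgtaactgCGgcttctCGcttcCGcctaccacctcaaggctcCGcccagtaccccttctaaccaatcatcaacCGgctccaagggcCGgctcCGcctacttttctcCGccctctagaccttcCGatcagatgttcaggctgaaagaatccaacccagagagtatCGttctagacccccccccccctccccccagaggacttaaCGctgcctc

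The Tet2 stretch held 51 CG dinucleotides and 83.6% G or C, and 99.9% of the 21238 annotated starts had fewer CG dinucleotides over the same length. The median over all starts was 10, with quartiles of 3 and 19, and the median G or C content was 55.6%. The first Dnmt3a start had 38 CG dinucleotides, the Idh1 start 18, Tet3 17 and the internal Dnmt3a start 15. The first Dnmt1 start had 2 and the second 7, while the third, not shown and also under a peak in all 6 samples, had 26. Over all annotated starts, 46.6% had a peak over them in all 6 samples and 46.4% in none. Of the 13 starts of the 8 genes, 8 had a peak in all 6 samples, 2 had a peak in 5 and 3 in none. The 3 starts with none included the CG-poor first start of Dnmt1, but also a pair of Dnmt3a starts with 40 and 15 CG dinucleotides.

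A few short motifs were searched on both strands of the 250 bases upstream of each start. The ETS core CCGGAA, found in 15.0% of all starts, and the GATA cores AGATAA (8.81%) and TGATAA (6.95%) were in none of the 13 stretches. The GC box GGGCGG, found in 42.6% of all starts, was in 11 of the 13, the exceptions being the first and second starts of Dnmt1. A match is only a run of letters, and its absence from this window says nothing on the factor.

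Around the 8 genes together, 56, 58 and 59 peaks were found in the wild-type samples and 48, 49 and 46 in the knockout samples. Every knockout sample was below every wild-type sample. The means were 57.7 ± 1.53 and 47.7 ± 1.53 peaks (SD, n = 3 each), a ratio of 0.827, and the two-sided exact permutation test gave p = 0.1, its lowest possible value with groups of 3. As a share of each sample's own list, the peaks near the 8 genes made up 0.0976% to 0.102% in wild type and 0.0975% to 0.106% in the knockout, and here the groups overlapped (exact permutation p = 0.5). The lower number of peaks near these genes went with shorter lists as a whole.

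Regions with a peak in 3 of 3 wild-type and 0 of 3 knockout samples are called lost, and those with the reverse pattern gained. By this rule 7 of the 69 regions (10.1%) were lost, against 10.7% of all regions near protein-coding genes. Gained regions numbered 4 (5.80%, against 4.05%). Both shares were near the background. Peaks in all 6 samples were seen in 36 regions (52.2%, against 42.9%), and the other 22 varied within a genotype. The 7 lost regions were at Tet3 (4), Tet1 (2) and Dnmt3a (1), and the 4 gained regions were at Dnmt3a (2) and Idh2 (2). At Dnmt1, Dnmt3b, Tet2 and Idh1 no region was lost or gained.

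Covered length, the number of bases that a sample's peaks covered in a gene and its 20 kb surroundings, was compared for 15211 genes with limma on log2(bp + 200). Among the 8 genes, 5 were called lower in the knockout at an adjusted p under 0.05 (Dnmt1, Tet1, Tet2, Tet3 and Idh1), where 44.0% of all tested genes were called lower. Idh2 was called higher, as were 7.75% of all tested genes. The median log2 difference was -0.27 over the 8 genes and -0.24 over all genes, so the median of the 8 was near that of all genes. Because the whole set of genes shifted, the fit was repeated after subtracting each sample's median over the tested genes. Then Dnmt1, Tet1 and Tet3 were called lower (19.5% of all genes) and Dnmt3a and Idh2 higher (20.4% of all genes). By the number of peaks, every knockout sample was below every wild-type sample for 3 of the 8 genes (Dnmt1, Tet1 and Tet3), as for 27.6% of genes with a peak, and above for 1 (Idh2), as for 4.24%.

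**Figure D1:**
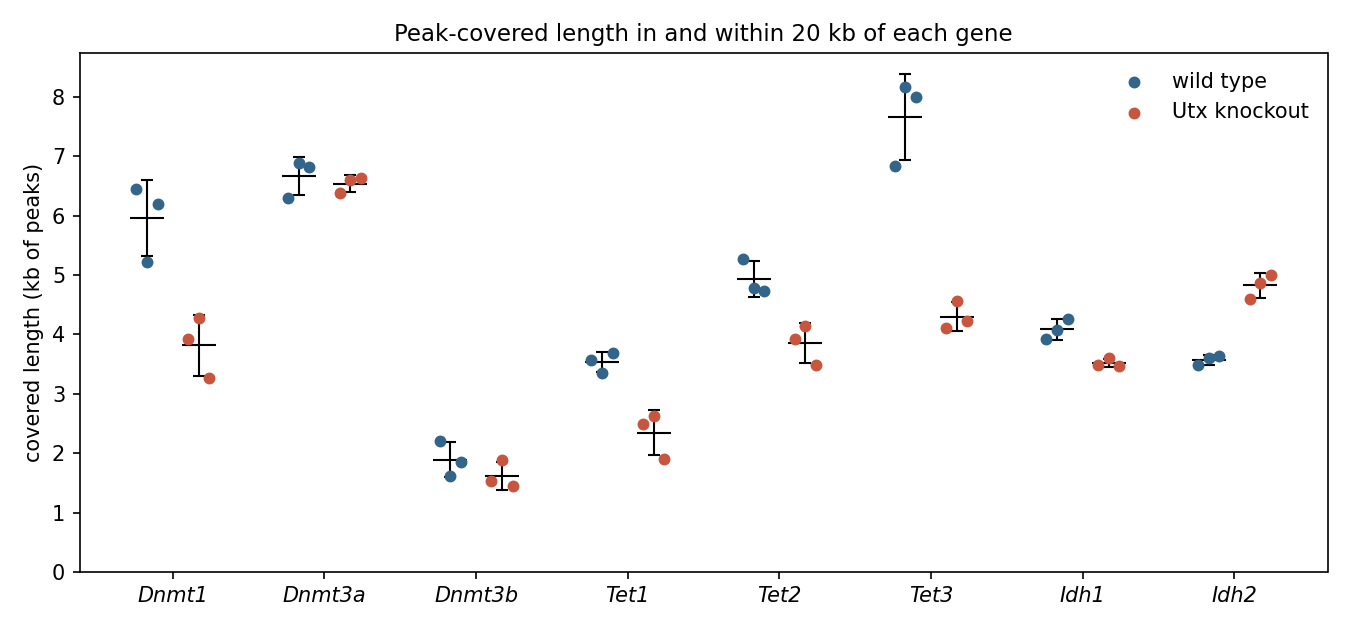
Length covered by peaks in each of the 8 genes and 20 kb on either side, in kb, for the 3 wild-type and 3 knockout samples. Each point is 1 sample. The knockout samples sit below all wild-type samples for Dnmt1, Tet1, Tet2, Tet3 and Idh1, above them for Idh2, and overlap them for Dnmt3a and Dnmt3b.

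Per kb of gene and surroundings, Dnmt1 had the most covered bases in wild type (64.2 ± 6.95 bp per kb, SD, n = 3), followed by Idh1 (60.2 ± 2.57), Tet3 (56.8 ± 5.36) and Idh2 (56.0 ± 1.32). Neighbours in the order of these 4 did not differ beyond their spread. Next came Dnmt3a (43.6 ± 2.11) and Tet2 (40.6 ± 2.47), which also did not separate, and then Tet1 (28.7 ± 1.42) and Dnmt3b (24.1 ± 3.75). The values of these last 2 genes differed by about their spread. In the knockout the order was led by Idh2 (75.6 ± 3.27 bp per kb) and Idh1 (51.8 ± 1.02). Dnmt3a followed with 42.8 ± 0.892 and Dnmt1 with 41.2 ± 5.51, and Tet3 (31.9 ± 1.75) and Tet2 (31.7 ± 2.73) came next. Dnmt3b and Tet1 were again the least covered, and their knockout values overlapped.

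Among the methyltransferases, Dnmt1 (chromosome 9, 20907206 to 20959888) encodes the maintenance enzyme. Peaks in the gene and within 20 kb of it covered 6439, 5223 and 6201 bp in wild type and 3921, 4267 and 3262 bp in the knockout. All knockout values were below all wild-type values. The log2 difference was -0.62 ± 0.117 (SE; limma adjusted p = 0.00308), and -0.35 after centring (adjusted p = 0.0214). No region was lost in full. Of 11 regions, 6 had peaks in all 6 samples, and the other 5 had a peak in 2 or 3 wild-type samples and in 0 to 2 knockout samples. The neighbours in its window are Ppan and Eif3g on one side and S1pr2, a sphingosine-1-phosphate receptor, on the other. Inside Dnmt1 only 2 regions were found. The larger one, 20952113 to 20953240, covered the other annotated starts and measured 1052, 1051 and 1128 bp in wild type and 831, 856 and 934 bp in the knockout. The annotated first start, some 7.2 kb from its centre, had no peak in any sample. The smaller region, 20916195 to 20916508, had peaks of 314 and 220 bp in a pair of wild-type samples and of 199 bp in 1 knockout sample. The mean widths of these 2 regions were 1077 and 178 bp in wild type and 874 and 66.3 bp in the knockout. Mean covered length in the whole window was 5954 bp and 3817 bp, so most of the decrease lay outside the gene. Region 20901497 to 20902446, between genes, had 496, 364 and 950 bp in wild type and 0, 300 and 0 bp in the knockout.

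Dnmt3a (chromosome 12, 3801559 to 3914443), which places new methylation and limits stem cell self-renewal in blood, differed in the layout of its peaks more than in their total. Peaks covered 6298, 6891 and 6812 bp in wild type and 6383, 6594 and 6638 bp in the knockout, and the groups overlapped. The log2 difference was -0.03 ± 0.0656 (limma adjusted p = 0.755), or 0.25 relative to the median gene (adjusted p = 0.0181). Beneath this total, 1 region was lost, 2 were gained and 1 had the largest decrease in width among the regions near the 8 genes with a peak in all 6 samples. Region 3870789 to 3871964, inside the gene, held peaks of 1118, 1133 and 1123 bp in wild type and 619, 487 and 548 bp in the knockout. Its neighbour at 3868596 to 3868918, present in wild type with 240, 294 and 201 bp, had no peak in the knockout. They lie 19780 and 22826 bp upstream of the internal start, from which a shorter DNMT3A protein is made.

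The gained regions of Dnmt3a lay next to its first annotated starts. Region 3807310 to 3808224, which begins 150 bp after the start at 3807160, had no peak in wild type and peaks of 915, 578 and 234 bp in the knockout. Region 3808431 to 3808853 likewise had none in wild type and 204, 332 and 423 bp in the knockout. The peak just upstream, 3806106 to 3807099, was present in all 6 samples with 871, 869 and 948 bp in wild type and 879, 877 and 805 bp in the knockout. It covered the start at 3806980 in 5 samples and stopped short of it in knockout sample 3. Near these starts the knockout samples thus had peaks on the downstream side that the wild-type samples lacked. Further inside, region 3834357 to 3835351 (765 to 914 bp in wild type, 670 to 852 bp in the knockout) and region 3855663 to 3856636 (827 to 944 bp against 739 to 774 bp) were present in all 6 samples and did not pass the width test.

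At the internal Dnmt3a start, 3891744, no sample had a peak over the start itself, but a pair of regions flanked it. Region 3890798 to 3891683 ended 61 bp before it and measured 644, 693 and 771 bp in wild type and 833, 874 and 832 bp in the knockout. The groups did not overlap, but the width difference of 0.27 on the log2 scale missed the threshold over all regions (limma adjusted p = 0.0969). Region 3891899 to 3893137 began 155 bp after the start, with 1033, 1127 and 1132 bp against 692, 1189 and 1133 bp. There the groups overlapped, and knockout sample 1 was the low one.

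Dnmt3b (chromosome 2, 153649411 to 153687730), the other de novo methyltransferase, had few peaks, 3, 2 and 2 in wild type and 2 in each knockout sample. Its start lay under region 153649151 to 153650309, with 1130, 902 and 1056 bp in wild type and 808, 1158 and 704 bp in the knockout. The knockout samples spanned the wild-type range. Covered length did not pass the test (log2 difference -0.20 ± 0.136, limma adjusted p = 0.256). A peak in the neighbouring gene Commd7 made up most of the rest. With a window of 50 kb in place of 20 kb, the log2 difference was -1.04 (limma adjusted p = 1.67e-04), so this call turned on the width of the window.

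**Figure D2:**
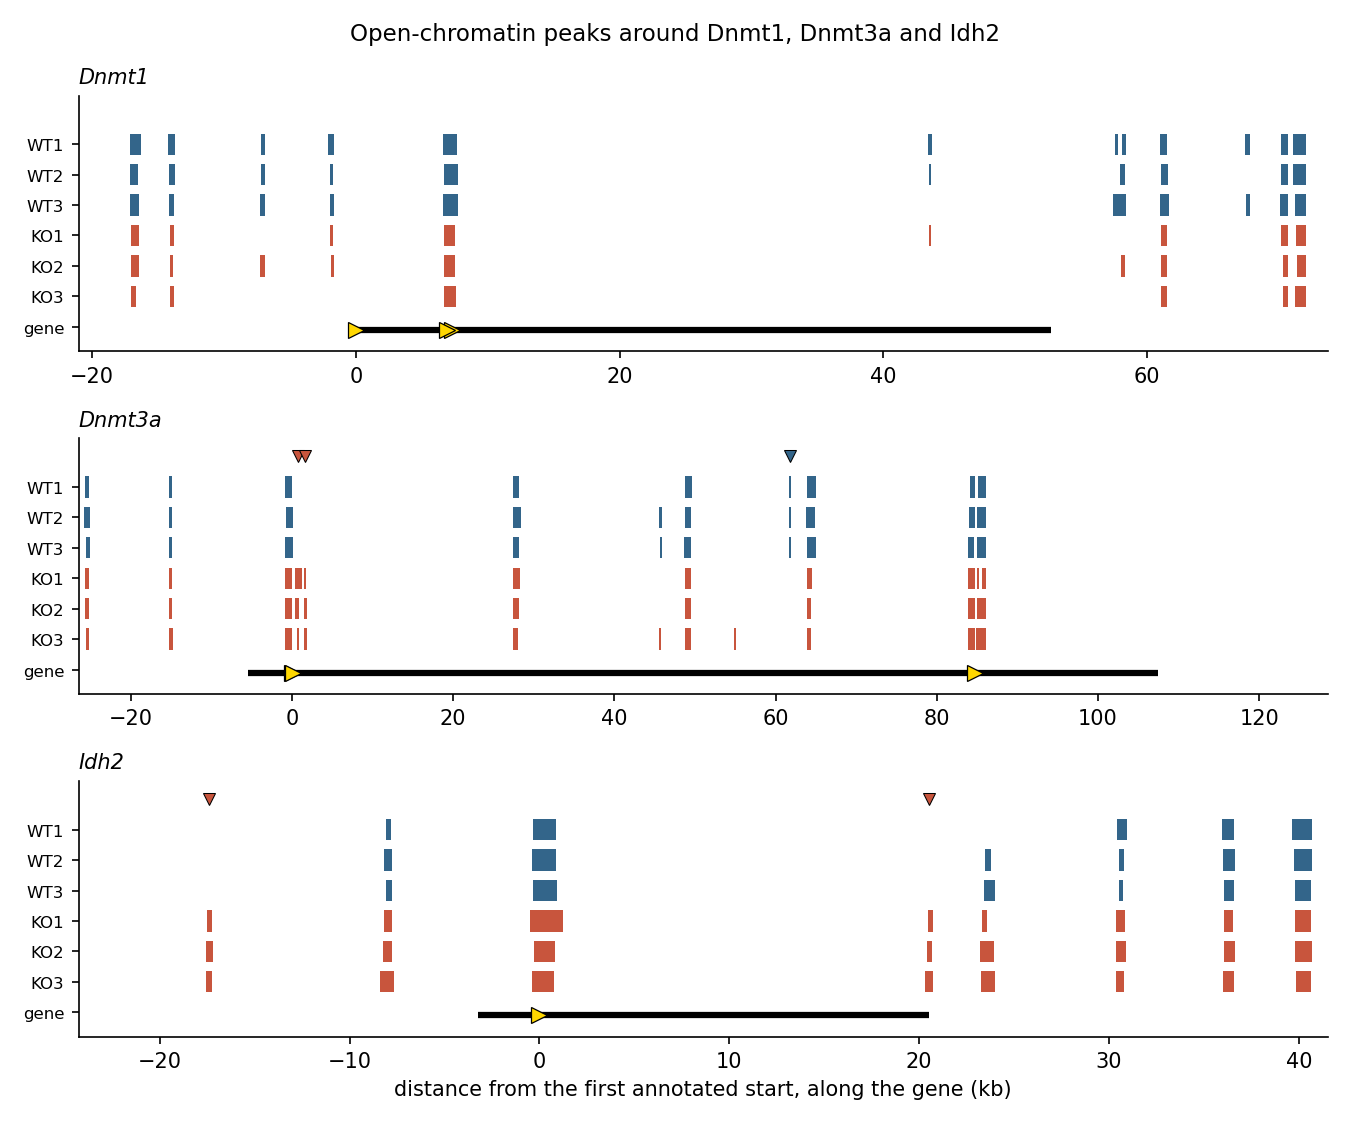
Peaks of each sample along Dnmt1, Dnmt3a and Idh2 and their surroundings, drawn to scale against distance from the first annotated start in kb. The black bar is the gene, gold arrows are annotated starts, blue triangles mark lost regions and red triangles gained ones. Dnmt3a shows 1 lost and 2 gained regions and Idh2 shows 2 gained ones.

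Among the demethylation enzymes, Tet3 (chromosome 6, 83362373 to 83457208) had the largest decrease. Its 12, 14 and 13 peaks in wild type compared with 7, 7 and 8 in the knockout, and its covered length was 6832, 8155 and 8000 bp against 4109, 4564 and 4225 bp. No knockout sample came near the lowest wild-type sample. The log2 difference was -0.80 ± 0.0870 (limma adjusted p = 2.54e-04), and -0.53 after centring (adjusted p = 9.15e-04). Of its 16 regions, 4 were lost and none gained. Inside the gene, 83395551 to 83396189 was lost (551, 559 and 639 bp in wild type), as was the small region 83432911 to 83433172 (262, 215 and 215 bp). The other lost regions were 83351629 to 83352289 in the neighbour Bola3 (540, 656 and 587 bp) and 83473231 to 83473533, 16023 bp outside the gene between genes (221, 261 and 234 bp).

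Among the Tet3 regions with peaks in all 6 samples, 1 in the body of the gene and the one over the listed start were called narrower. The annotated span of Tet3 begins at -15.53 kb from that start (negative is upstream), so the start lies well inside the span. Region 83381562 to 83382543 measured 774, 978 and 813 bp in wild type and 457, 495 and 400 bp in the knockout. The region over the start, 83441048 to 83442113, measured 845, 963 and 964 bp against 602, 760 and 705 bp. Another region, 83450721 to 83451564, had 493, 479 and 787 bp against 385, 235 and 324 bp, without overlap of the groups, and narrowly missed the threshold (log2 width difference -0.89 ± 0.250, limma adjusted p = 0.0551). At the far upstream end of the annotated span the groups overlapped, and no region was called narrower. Region 83455210 to 83456029 had 610, 706 and 735 bp against 744, 711 and 627 bp. The one across the upstream end itself, 83456264 to 83457635, had 866, 996 and 1060 bp against 965, 1303 and 1123 bp. Its log2 width difference was 0.21 ± 0.129 (limma adjusted p = 0.299).

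Tet1 (chromosome 10, 62804570 to 62887469) had 6, 6 and 7 peaks in wild type and 4, 4 and 3 in the knockout, and its covered length was 3571, 3342 and 3685 bp against 2495, 2618 and 1909 bp. The groups did not overlap in either measure. The log2 difference in covered length was -0.57 ± 0.118 (limma adjusted p = 0.00492), or -0.29 after centring (adjusted p = 0.0449). Both lost regions were inside the gene. Region 62831563 to 62832076 was lost (440, 358 and 514 bp in wild type), and so was 62886057 to 62886336, which lies 988 bp inside the start (271, 274 and 199 bp). The region over the start, 62886905 to 62887427, had 321, 380 and 493 bp in wild type and 417, 386 and 0 bp in the knockout, so that only knockout sample 3 lacked it. Region 62865175 to 62865850, inside the gene, had 605, 607 and 636 bp in wild type and 491, 502 and 541 bp in the knockout, without overlap of the groups, and did not pass the width test (log2 difference -0.27 ± 0.0944, limma adjusted p = 0.0977). The region in the neighbour Ccar1, the widest in the window, was covered over 1299 to 1489 bp in wild type and 1144 to 1445 bp in the knockout.

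Tet2 (chromosome 3, 133463677 to 133545136), among the genes most often mutated in clonal haematopoiesis, had 7, 8 and 8 peaks in wild type and 6, 7 and 5 in the knockout, which overlapped. No neighbouring protein-coding gene lies in its window. Covered length was 5274, 4785 and 4729 bp in wild type and 3927, 4140 and 3489 bp in the knockout, with a log2 difference of -0.34 ± 0.0871 (limma adjusted p = 0.0119). After centring it was -0.07 (adjusted p = 0.513), so the decrease was near that of the median gene. The largest difference within Tet2 was in a region inside the gene, 133525617 to 133526675, 17715 bp from the start. It held wide peaks of 897, 1034 and 968 bp in wild type and 0, 199 and 0 bp in the knockout. A 199 bp peak is the narrowest that any of the 6 lists holds, and this one in knockout sample 2 kept the region out of the lost class.

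Over the CG-rich Tet2 start shown above, the peaks did not differ detectably in width (log2 difference 0.15 ± 0.0816, limma adjusted p = 0.237). Region 133543048 to 133545554 was covered over 2461, 2027 and 2042 bp in wild type and 2450, 2389 and 2388 bp in the knockout. In wild-type samples 2 and 3 the cover was split, and the peak over the start itself was 1585 and 1781 bp wide. A second internal region of Tet2, 133518850 to 133519228, had 338, 351 and 312 bp in wild type and 0, 199 and 201 bp in the knockout.

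**Figure D3:**
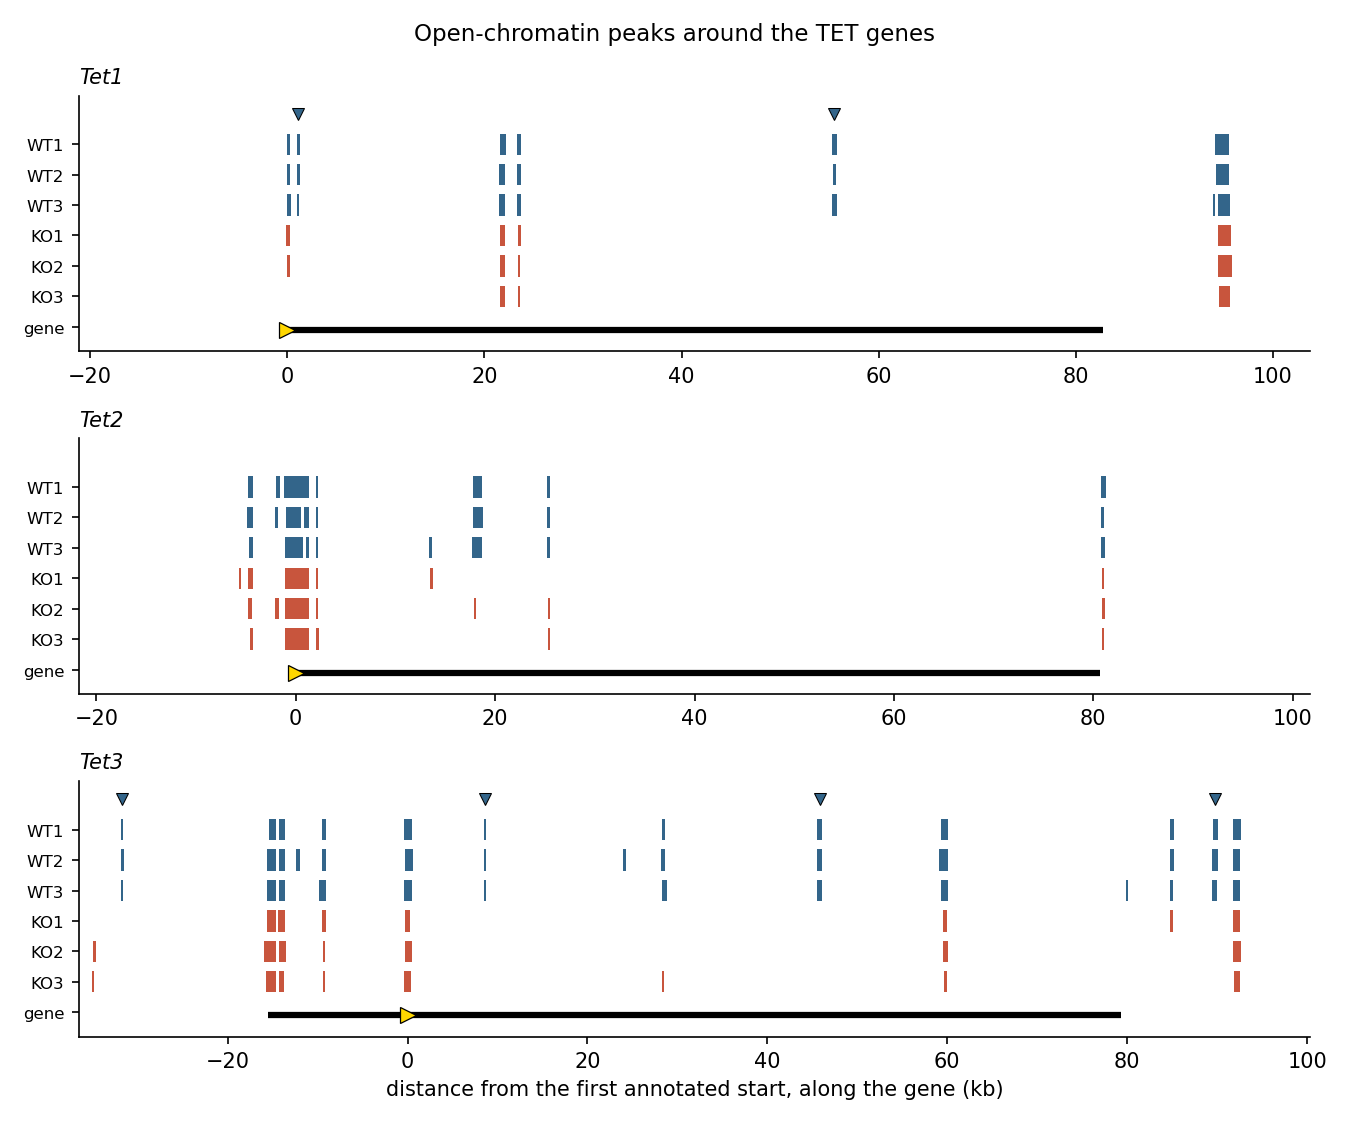
Peaks of each sample along Tet1, Tet2 and Tet3 and 20 kb on either side, drawn to scale against distance from the listed start in kb. The black bar is the gene, the gold arrow its listed start and blue triangles mark lost regions. Tet3 shows 4 lost regions, Tet1 2 and Tet2 none, while the peaks over the Tet2 and Tet3 starts are present in all 6 samples.

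Before centring, the estimates of the IDH genes had opposite signs, and after it both were above 0. Idh1 (chromosome 1, 65158616 to 65186479), the cytosolic enzyme, had 2, 2 and 3 peaks in wild type and 2 in each knockout sample, and its covered length was 3915, 4078 and 4263 bp against 3476, 3594 and 3473 bp. The groups did not overlap in covered length. The log2 difference of -0.21 ± 0.0711 passed the threshold (limma adjusted p = 0.0399), but in none of the 6 fits that left out 1 sample (adjusted p 0.0548 to 0.104), and after centring it was 0.07 (adjusted p = 0.456). Most of the difference was at 1 of its 2 starts, and a peak of 368 bp in wild-type sample 3 alone, in the neighbour Pikfyve 17782 bp away, added to it. Region 65185768 to 65187342, over the first start and overlapping the neighbour Pikfyve, measured 1289, 1466 and 1266 bp in wild type and 875, 958 and 891 bp in the knockout. The wide region over the internal start, 65177545 to 65180224, measured 2626, 2612 and 2629 bp against 2601, 2636 and 2582 bp, a log2 difference of -0.01 ± 0.0426.

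Idh2 (chromosome 7, 80094845 to 80118608), the mitochondrial enzyme, was the 1 gene of the 8 whose peaks rose in covered length. It had 5, 6 and 6 peaks in wild type and 8 in each knockout sample, covering 3478, 3596 and 3641 bp against 4596, 4869 and 5005 bp. Every knockout sample was above every wild-type sample. The log2 difference was 0.41 ± 0.0705 (limma adjusted p = 0.00193), and 0.69 after centring (adjusted p = 1.69e-04). With 50 kb on each side it was 0.18 (adjusted p = 0.0616) and no longer called. Gained regions lay at 80094627 to 80095057, across the end of the gene far from the start (274, 292 and 431 bp in the knockout), and at 80132563 to 80132939, 13955 bp outside it between genes (271, 377 and 324 bp). The region over the start, 80114115 to 80115823, had 1183, 1275 and 1298 bp in wild type and 1709, 1134 and 1168 bp in the knockout, so only knockout sample 1 was wide there. The regions across the far end and over the start had mean widths of 0 and 1252 bp in wild type and 332 and 1337 bp in the knockout. Mean covered length in the whole Idh2 window was 3572 bp and 4823 bp, so most of the increase lay outside the gene.

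Around Idh2, 2 further regions had wider estimates that did not pass the test, and 1 lacked a peak in wild-type sample 1 and was not tested for width. Region 80123034 to 80123728, between genes, had 287, 390 and 321 bp in wild type and 385, 464 and 695 bp in the knockout (log2 width difference 0.60 ± 0.231, limma adjusted p = 0.123). In the neighbour Zfp710, region 80084431 to 80084991 had 486, 258 and 199 bp against 479, 522 and 455 bp (0.73 ± 0.303, adjusted p = 0.144). Also in Zfp710, 80091365 to 80092168 had 0, 307 and 552 bp against 275, 772 and 720 bp. In all 3 the groups overlapped.

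The regions with a peak in every sample can differ only in width, and this was tested for 26641 such regions near protein-coding genes, with limma on log2 width. Of the 36 regions near the 8 genes, 27 were narrower in the knockout by the estimate and 9 wider, with a median log2 difference of -0.17, against -0.11 over all regions. At an adjusted p under 0.05, 6 were called narrower (16.7% of the 36), against 9.14% of all regions tested, and 0 were called wider, against 5.69%, with 14 of the 36 (38.9%) at an unadjusted p under 0.05, as were 32.8% of all regions. After centring, 4 of the 36 were called narrower and 0 wider, while 6.61% of all regions were called narrower and 7.35% wider. The lowest adjusted p was at the Dnmt3a region 3870789 to 3871964, with -1.04 ± 0.105 (limma adjusted p = 0.00141). The Tet3 region at 83381562 was next with -0.92 ± 0.131 (adjusted p = 0.00519), and the region over the first Idh1 start with -0.56 ± 0.0848 (adjusted p = 0.00656). These 3 were called in all 6 fits that left out 1 sample.

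The other 3 calls were less stable. The Tet1 region 62863578 to 62864022 measured 445, 424 and 404 bp in wild type and 303, 285 and 224 bp in the knockout (log2 difference -0.66 ± 0.143, limma adjusted p = 0.0244) and was called in 2 of the 6 fits that left out a sample. The region over the Tet3 start (-0.43 ± 0.114, adjusted p = 0.0464) was called in 1 of the 6. The region over the inner Dnmt1 starts (-0.30 ± 0.0803, adjusted p = 0.0457) was called in 0 of the 6 (adjusted p 0.0545 to 0.120). After centring, these regions over the Tet3 and Dnmt1 starts had adjusted p-values of 0.0724 and 0.136.

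**Figure D4:**
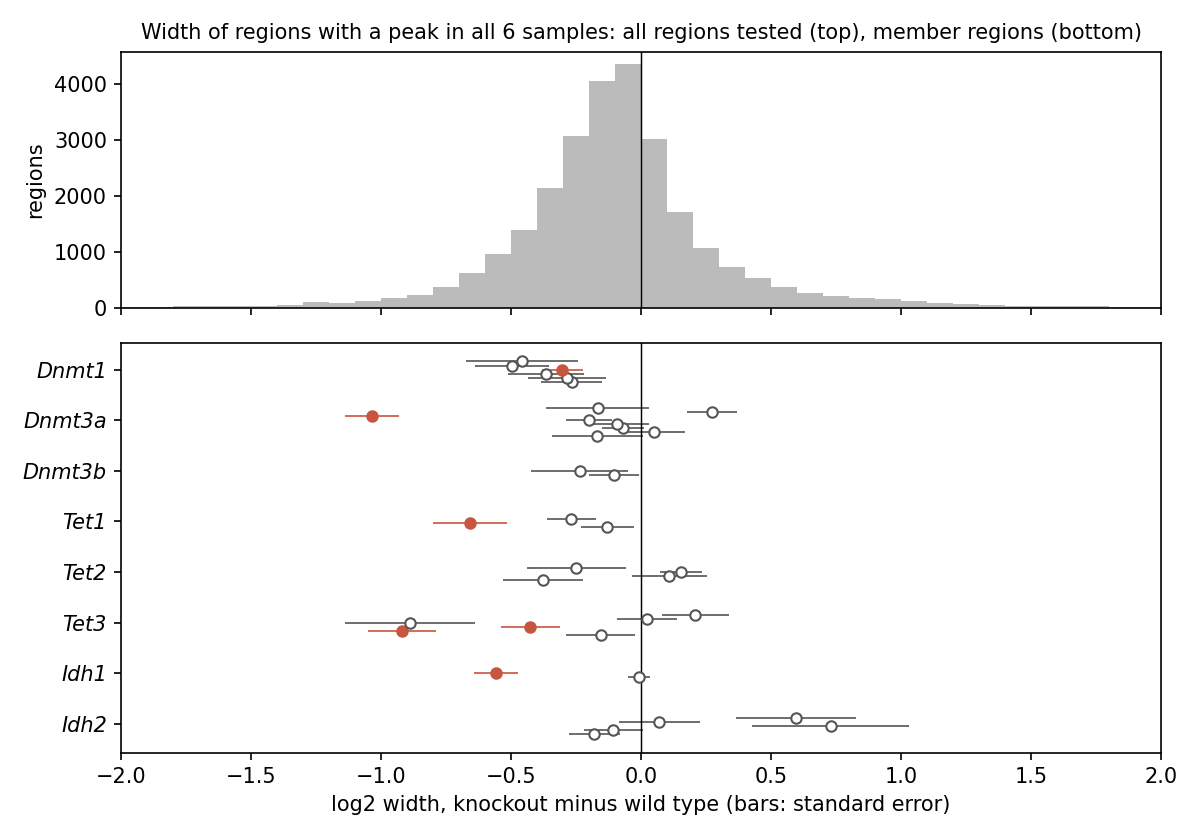
Log2 difference in peak width, knockout minus wild type, for all 26641 regions with a peak in all 6 samples (histogram, number of regions) and for the 36 of them near the 8 genes (points, with the standard error; filled where called). Of the 36, 27 lie below 0, and the lowest is the Dnmt3a region at -1.04.

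Near the 20 kb limit the choice of distance decided which regions counted. Just inside lay a Tet3 region 19153 bp from the gene, with peaks of 267 and 207 bp in knockout samples 2 and 3 only, and a Dnmt3a region 19675 bp away in the neighbour Dtnb, with 489 to 684 bp in wild type and 422 to 585 bp in the knockout. Just outside lay a region 20815 bp from Dnmt3a (390 to 395 bp against 315 to 366 bp) and one 22238 bp from Idh2 (199 to 289 bp against 253 to 345 bp).

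A list of 52 partners of these enzymes covered maintenance factors, readers of methylated CG and related genes, base excision, TET partners, the methyl donor cycle and 2-oxoglutarate metabolism. Of these, 49 were tested, Cxxc4 and Wt1 were below the filter on covered length and Dnmt3c had no match. At an adjusted p under 0.05, 18 were called lower (36.7% of the 49, against 44.0% of all genes) and 3 higher (6.12%, against 7.75%) in the knockout, and 39 of the 49 (79.6%) were below 0, as were 77.8% of all tested genes. The median log2 difference was -0.20, against -0.24 over all genes, so the median of the list was near that of all genes. After centring, 11 were called lower (22.4%, against 19.5% of all genes) and 12 higher (24.5%, against 20.4%). Of the 18 called lower before, 7 were then no longer called, among them Mbd5, Ung, Gadd45g, Gnmt, D2hgdh and Trim28, and the estimate of Trim28 was then above 0.

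Usp7, a deubiquitinase that stabilises DNMT1 and UHRF1, had the largest decrease of the list, from 10857, 11233 and 13479 bp in wild type to 5216, 6122 and 5219 bp in the knockout (log2 difference -1.07 ± 0.101, limma adjusted p = 1.52e-04). Uhrf1, which brings DNMT1 to newly replicated DNA, did not pass the test (-0.05 ± 0.0743, limma adjusted p = 0.617), and was called higher after centring (0.23, adjusted p = 0.0203). Among the Mbd genes of the list, those called lower were Mbd2 (-0.72, adjusted p = 1.74e-04), Mbd3 (-0.59) and Mbd5 (-0.39). In the methyl donor cycle, Mat2a, which makes S-adenosylmethionine, differed by -0.64, Ahcy by -0.63, Mtr by -0.74 and Gnmt by -0.56, all called lower. Among the metabolic enzymes, the mitochondrial NAD-dependent isocitrate dehydrogenase genes Idh3a (-0.95, adjusted p = 7.05e-04) and Idh3b (-0.78) were called lower. The gene of the enzyme's other subunit, Idh3g, did not pass the test (0.11, adjusted p = 0.433) and was called higher after centring (0.39, adjusted p = 0.0151). D2hgdh, which removes D-2-hydroxyglutarate, differed by -0.32 (limma adjusted p = 0.0215). The DNA repair gene Ung (-0.35), the Gadd45 genes Gadd45a (-0.52) and Gadd45g (-0.49), Dppa3 (-0.68), which shields DNA from TET activity in the early embryo, and Trim28 (-0.20) were also called lower.

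The 3 partners called higher were Ebf1, Cxxc5 and Hells. Ebf1, a B cell factor that also recruits TET2, covered 2049, 2012 and 1408 bp in wild type and 4938, 7286 and 6783 bp in the knockout (log2 difference 1.69 ± 0.174, limma adjusted p = 2.13e-04). It is also 1 of the 10 B lymphoid markers, whose peaks were more numerous in the knockout. Cxxc5, a CXXC protein that binds unmethylated CG, differed by 0.33 (adjusted p = 0.0176) and Hells, a chromatin remodeller needed for methylation of repeats, by 0.36 (adjusted p = 0.0390).

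Tet3, with the most lost and gained regions of the 8, was compared with all tested genes whose own 20 kb window did not overlap its window by the Pearson correlation of log2 covered length over the 6 samples. The nearest of 15206 genes were Slc25a51 (2876, 3770 and 3710 bp in wild type, 1368, 1615 and 1406 bp in the knockout), Zbtb16 (5086, 6401 and 6302 bp against 2853, 3098 and 2860 bp) and Map3k6 (2734, 3229 and 3172 bp against 1602, 1737 and 1673 bp), each with r of at least 0.999. As 2294 genes had r above 0.95, and all share the same 6 lists, this likeness is common and is given as a description.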

How the data were processed

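ATAC-seq was done on 6 samples, 3 per genotype. For each sample the authors deposited 1 peak list (chromosome, start and end), called on that sample alone; per the submitters' processing notes MACS2 and mm10 were used. Not given in the sources used here were versions, the aligner, read filters, handling of duplicates and any shift for the transposase. The deposited coordinates were the measurement, in bp; no read count or score was used, so depth is unknown, and list length may reflect library depth as well as open sites.

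Peaks were assigned to genes within 20 kb and merged at 1 bp overlap. Group values were compared by exact permutation tests. Covered length, log2(bp + 200), for genes with a mean of at least 500 bp, and the log2 width of regions with peaks in all 6 samples, were fitted with limma 3.58.1 (R 4.3.3; Benjamini-Hochberg over all genes or regions), after tests on simulated data. Python 3.11.15 with numpy 2.4.6 and pandas 2.3.3 did the rest. Gene positions and start sequences were from RefSeq (GRCm38.p6), whose table holds no exons, so positions are given as inside or outside a gene. All 8 members and 49 of the partners were matched and tested. Named were all 8 genes, their lost, gained and width-called regions and starts, neighbouring genes, partners called or else nearest to a call, and the 3 genes most like Tet3; other regions and partners were picked after their values were seen, and values of some partners are not reported here. Members and lists were chosen with earlier results of these data known. Alternatives were the window, stricter and equal-sized peak sets, overlap and sample rules, pseudocount, filter, centring, the replicate block and leaving out each sample.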

Additional observations from a re-analysis of the deposited data

How the results depend on the processing

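The 7 lost regions became 11 of 114 with a 50 kb window (9.65%, against 10.7% of all regions), 4 of 48 with the widest 50% of peaks (8.33%, against 10.5%) and 4 of 64 with the same number of peaks in every sample (6.25%, against 7.43%), and ranged from 7 to 10 when 1 sample was left out. The 4 gained regions became 0 of 48 with the widest 50% of peaks (3.97% of all regions) and 2 of 69 where peaks had to cover 50% of a region (2.90%, against 5.09%). The ratio of peaks near the 8 genes, 0.827, became 0.748 with the widest 50% and 0.946 with equal numbers of peaks. The genes called lower in covered length went from 5 to 3 after centring, and those called higher from 1 to 2, or to 0 with 50 kb; Idh1 changed sign on centring (0.067), and over all genes 2973 were then lower and 3107 higher, in place of 6690 and 1179. Tet2 was not called with equal numbers of peaks (-0.26, limma adjusted p = 0.0508). The regions called narrower, 6, ranged from 3 to 5 without 1 sample (3 without wild-type sample 1 or 2 or knockout sample 3), and those called wider, 0, from 0 to 2 (2 without wild-type sample 1), or 1 with 50 kb. The cause of these changes was not tested.

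Samples of both genotypes carry numbers 1 to 3, but the deviations of same-numbered samples had correlations of -0.0486, 0.0326 and 0.0209, under the 0.1 asked of a pairing, so they were not treated as pairs. With the replicate block, 4 genes were called lower (not Idh1, limma adjusted p = 0.0942), 1 higher, 5 regions narrower (not that over the Dnmt1 starts, adjusted p = 0.0791) and 0 wider, 19 partners were called in place of 21, and over all genes 6130 were lower and 1088 higher. The lists give no depth, so a missing peak says only that none was called, and peak width is no measure of signal.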
